A study of Mus musculus with 7 samples.

Results

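Obese inguinal fat exosomes were compared with no exosomes in 3T3-L1 cells, mouse fibroblasts that hormones can turn into fat cells in a dish, with 1 RNA-seq library a side. The treated library, called HFD-iWAT-Exos as in the labels, came from cells exposed to exosomes for 48 h. The exosomes were of inguinal white adipose tissue (iWAT) of mice on a high-fat diet (HFD), which per the paper lasted months. The control library came from cells labelled as having had no treatment, whereas legends in the supplementary material name PBS for unexposed cells. Genes were compared where they reached 1 CPM (counts of a gene per 1000000 counts of its library, after scaling) in either library, which held for 12441 of the 34745 genes in the table, of which 21370 had a count in any library. Both libraries are labelled wild type. Per the protocol, the cells of both were differentiated with insulin, IBMX and dexamethasone and used at days 8 to 10. The other 5 libraries of the series, each again 1 per group, received exosomes of iWAT of mice on a low-fat diet (LFD), or of visceral white fat (vWAT) or brown fat (BAT) of mice on either diet. The labels do not give the age or number of the mice from which the exosomes came, and with 1 library per group no p-value can be given and no spread between cultures is known. The methods state that each exosome type was assayed in triplicate or more, and whether a library pools several cultures is not given in the sources used here.

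The labels call the cells embryonic fibroblasts and the protocol calls them fully differentiated adipocytes, so the markers of both were examined first. Of 12 adipocyte markers, 8 lay under 1 CPM in both libraries, among them Adipoq, Cfd, Plin1, Lep and Cebpa, whereas Fabp4, Plin4, Lipe and Pparg were above it. All 9 preadipocyte and fibroblast markers were above 1 CPM. The 12 adipocyte markers summed to 190 CPM in the control and 235 CPM in HFD-iWAT-Exos, and the 9 fibroblast markers to 54549 CPM and 50738 CPM. How far these cells had become adipocytes was not tested. The adipocyte and lipid results below are therefore not shown to be those of mature adipocytes. Of 87 rows for markers of macrophages, endothelium, lymphocytes, blood, epithelium, skeletal muscle and mesothelium, 74 were under 1 CPM in both libraries and 33 had no count in either, and none of the 13 others was called different. The HFD-iWAT-Exos library held 17799636 counts and the control 21990561, within the range of 13493560 to 24345291 over the series, and mitochondrially encoded genes took 2.56% and 2.19% of them. The library of LFD-vWAT-Exos stood apart from the other 6, with the fewest counts, 1.10% mitochondrial counts and a scaling factor of 0.9501 against 1.00 to 1.01. It enters this comparison only through the scaling factors, and without it 366 genes in place of 362 were called.

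Exosomes are small membrane vesicles that cells release and that carry proteins, lipids and RNA to other cells. Adipose tissue releases them from adipocytes, macrophages and other cells, and the exosomes of obese fat have been studied as carriers of inflammatory and metabolic signals. In mesenchymal cells, serum response factor (SRF) with its actin-sensing partners drives genes of the contractile cytoskeleton, which fibroblasts express at a high level and mature adipocytes at a low one. The transcription factor NF-kappaB drives cytokines, chemokines and its own inhibitors in response to inflammatory ligands, and interferons induce a separate set of antiviral genes.

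A gene was called apart where the ratio of its scaled counts was at least 2-fold, on a log2 scale with a prior count of 2, and the 95% interval of the ratio left out equal levels. These exact intervals cover the counting error of 2 libraries only and say nothing of how another pair of cultures would differ. By this rule 362 of 12441 genes (2.91%) were apart, of which 207 (1.66%) were higher with HFD-iWAT-Exos and 155 (1.25%) were lower. Among the 207, the control was the lowest of the 7 libraries in 106 and HFD-iWAT-Exos the highest in 94. Among the 155, the control was the highest in 79 and HFD-iWAT-Exos the lowest in 56. Over all genes compared these places were held in 12.3%, 9.21%, 13.3% and 9.21% in turn. The rule for genes apart favours such places, so these counts are descriptions. The middle of the distribution was at equal levels: the median log2 ratio was -0.0028, 90.3% of genes were within 1.5-fold, and 95% lay between -0.71 and 0.86. Calls were concentrated among genes with few reads. Under a mean of 3 CPM 17.2% of genes were apart, between 10 and 30 CPM 1.14% were, and at 100 CPM or more 0.612% (13 of 2125) were. At least 100 counts over both libraries stood behind 153 of the 362 genes. Unnamed loci, whose symbols start with Gm or end with Rik, made up 25.1% of the genes apart and 7.50% of the genes compared, and protein-coding genes made up 74.3% and 93.5%. At the edge of the 1 CPM rule stood the pseudogene Anp32-ps, inside it with 1.04 CPM in the control, and Hk1os, outside it with 0.998 CPM in HFD-iWAT-Exos.

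**Figure D1:**
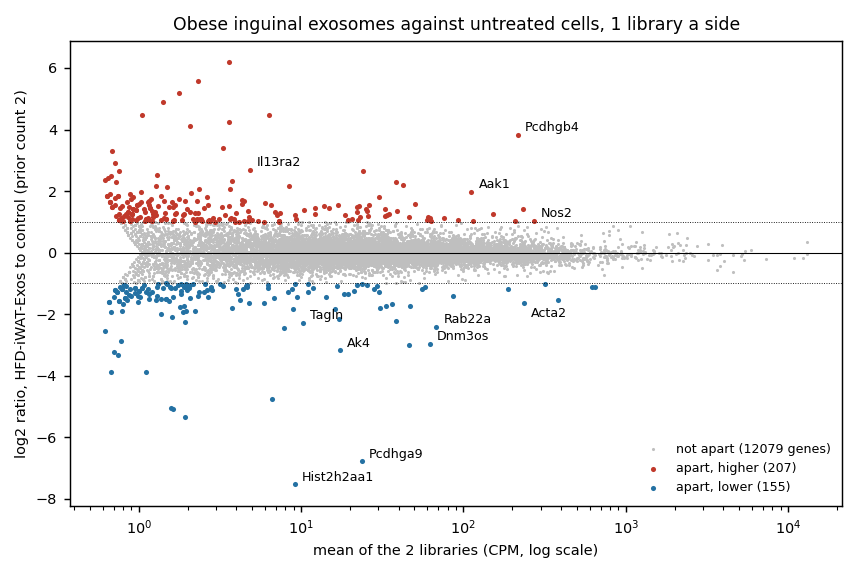
Log2 ratio of HFD-iWAT-Exos to control (y axis, prior count of 2) against the mean of both libraries in CPM (x axis, log scale), 1 point per gene compared and 1 library a side. The 362 genes apart, 207 above and 155 below equal levels, lie mostly at the left, where the mean is under 3 CPM.

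Contractile genes were lower in cells given obese inguinal exosomes. Of 25 compared members of a list of contractile cytoskeleton genes and SRF targets, 23 had a ratio below 1, 5 were apart and lower (20% of the list, against 1.25% of all genes) and none was apart and higher. The median log2 ratio of the list was -0.41, against -0.0028 for all genes. This list, like the others here, was chosen with earlier results of these data known, so its share and median are descriptions. Acta2, which encodes smooth muscle alpha-actin, stood at 358 CPM in the control and 116 CPM with HFD-iWAT-Exos, 3.08-fold lower (95% interval 2.94 to 3.23). In the other libraries Acta2 was at 68.8 CPM with LFD-iWAT-Exos, 29.95 CPM with LFD-vWAT-Exos, 296 CPM with LFD-BAT-Exos, 240 CPM with HFD-vWAT-Exos and 169 CPM with HFD-BAT-Exos. The control was thus the highest of the 7 libraries, and HFD-iWAT-Exos lay between the other iWAT library and both other HFD libraries. Cald1, encoding caldesmon, an actin-binding regulator of contraction, stood at 886 CPM in the control and 408 CPM with HFD-iWAT-Exos, 2.17-fold lower (2.11 to 2.23). HFD-iWAT-Exos was the lowest of the 7 libraries for Cald1, the other exosome libraries spanning 453 CPM (LFD-vWAT-Exos) to 804 CPM (LFD-BAT-Exos). Myl9, a regulatory light chain of smooth and non-muscle myosin, stood at 22.8 CPM in the control and 10.6 CPM with HFD-iWAT-Exos, 2.14-fold lower (1.81 to 2.54). The other libraries had Myl9 at 4.66 CPM (LFD-iWAT-Exos), 3.12 CPM (LFD-vWAT-Exos), 23.7 CPM (LFD-BAT-Exos), 21.7 CPM (HFD-vWAT-Exos) and 13.04 CPM (HFD-BAT-Exos).

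The remaining contractile genes apart were Tagln, encoding transgelin, at 16.999 and 3.44 CPM (4.95-fold lower, 3.77 to 6.58), and Actg1, encoding cytoplasmic gamma-actin, at 852 and 395 CPM (2.16-fold lower, 2.10 to 2.22). Both are uncertain, because their transcripts share sequence or exons with other genes. Other actin-cytoskeleton members were lower by less than the threshold: Flna (filamin A) at 915 and 552 CPM, Tpm1 (tropomyosin 1) at 414 and 274 CPM, and Actb (beta-actin, an uncertain count) at 1094 and 795 CPM. Srf itself stood at 44.5 CPM in the control and 34.2 CPM with HFD-iWAT-Exos. The members with a ratio above 1 were Smtn (57.3 and 69.3 CPM), which encodes smoothelin, and the SRF coactivator Mkl1 (80.8 and 83.0 CPM). A list of targets of YAP and TGF-beta, which respond to tension and matrix signals, did not share the direction: its median log2 ratio was 0.14, 14 of 21 members had a ratio above 1, and only Ctgf, a low and uncertain gene at 1.49 and 3.27 CPM, was apart.

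The promoters of the contractile genes the result turns on are shown here with the letters searched for in capitals, since SRF binds a motif called the CArG box. The windows run from 250 bases before to 50 bases after the RefSeq transcription start in GRCm38.p6, 5′ to 3′ on the gene's strand, and capitals mark matches to the CArG box, the kappaB motif, the AP-1 motif TGANTCA or the letters TATAAA, searched for on both strands.
Acta2: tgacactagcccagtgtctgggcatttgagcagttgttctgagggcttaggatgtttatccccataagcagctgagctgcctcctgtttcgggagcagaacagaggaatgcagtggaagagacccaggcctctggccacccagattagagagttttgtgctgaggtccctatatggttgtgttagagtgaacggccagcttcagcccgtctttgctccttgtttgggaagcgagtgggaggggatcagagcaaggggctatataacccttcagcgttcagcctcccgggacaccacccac
Actg1: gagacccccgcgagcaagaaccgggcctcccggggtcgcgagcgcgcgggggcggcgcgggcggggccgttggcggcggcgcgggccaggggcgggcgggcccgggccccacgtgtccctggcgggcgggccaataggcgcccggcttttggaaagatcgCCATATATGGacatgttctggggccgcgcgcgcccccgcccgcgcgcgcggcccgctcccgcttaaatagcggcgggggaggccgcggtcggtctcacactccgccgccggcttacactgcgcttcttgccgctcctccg
Myl9: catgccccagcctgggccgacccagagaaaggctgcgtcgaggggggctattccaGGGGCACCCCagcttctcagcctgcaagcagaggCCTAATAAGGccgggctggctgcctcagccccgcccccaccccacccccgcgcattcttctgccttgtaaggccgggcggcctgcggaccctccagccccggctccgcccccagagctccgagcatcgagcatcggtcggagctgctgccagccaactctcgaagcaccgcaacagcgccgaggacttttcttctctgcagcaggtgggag
Cald1: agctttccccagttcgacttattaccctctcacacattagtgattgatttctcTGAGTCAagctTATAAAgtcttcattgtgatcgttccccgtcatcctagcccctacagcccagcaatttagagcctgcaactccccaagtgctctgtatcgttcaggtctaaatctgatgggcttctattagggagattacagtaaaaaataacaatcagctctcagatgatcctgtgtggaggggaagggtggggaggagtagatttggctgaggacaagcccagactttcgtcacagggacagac
Acta2 (chr19:34255324-34255623, minus strand) had no exact match to the patterns searched for. The CArG box was searched for as CCWWWWWWGG, where W is A or T. The Acta2 window holds ccctatatgg and ccttgtttgg, which miss this pattern only at a C and a G and are not in capitals. The lack of a match thus does not show that Acta2 lacks a site for SRF. Actg1 (chr11:120348446-120348745, minus strand) had a CArG box 90 bases before the start, and Myl9 (chr2:156775214-156775513, plus strand) had a CArG box 161 bases and a kappaB motif 195 bases before it. In Cald1, for which the second of 2 windows is shown (chr6:34709194-34709493, plus strand), TGANTCA and TATAAA lay 197 and 186 bases before the start. The first Cald1 window, not shown, held no match. Of 20 members of the contractile list with a window, 25% held a CArG box, against 1.61% of the compared genes with a window and 1.81% of all 27025 genes in the promoter table. The list was drawn up from known SRF targets, so this share describes the list and not the exosome comparison, and a match is not shown to be a bound site.

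Inflammatory genes were higher, in a few named members by about 2-fold. In a list of NF-kappaB feedback genes and effectors 21 of 28 members had a ratio above 1 and 3 were apart and higher (10.7% apart, against 1.66% of all genes apart and higher), with a median log2 ratio of 0.19. Tnfaip3, encoding A20, an inhibitor that NF-kappaB induces, stood at 12.7 CPM in the control and 31.8 CPM with HFD-iWAT-Exos, 2.51-fold higher (2.17 to 2.90). The 5 other libraries had Tnfaip3 at 35.1 CPM (LFD-iWAT-Exos), 59.7 CPM (LFD-vWAT-Exos), 33.9 CPM (LFD-BAT-Exos), 34.6 CPM (HFD-vWAT-Exos) and 28.9 CPM (HFD-BAT-Exos). The control was therefore below every exosome library for Tnfaip3, and HFD-iWAT-Exos was within their range. Ptgs2, encoding the prostaglandin-forming enzyme COX-2, stood at 60.5 and 126 CPM, 2.08-fold higher (1.94 to 2.23). Its level in the other libraries was 210 CPM (LFD-iWAT-Exos), 369 CPM (LFD-vWAT-Exos), 89.1 CPM (LFD-BAT-Exos), 83.6 CPM (HFD-vWAT-Exos) and 148 CPM (HFD-BAT-Exos), again with the control lowest. Nos2, encoding inducible nitric oxide synthase, stood at 179 and 364 CPM, 2.04-fold higher (1.96 to 2.12). The range of Nos2 in the 5 other exosome libraries was 237 CPM (LFD-BAT-Exos) to 519 CPM (LFD-iWAT-Exos). The core subunits Nfkb1 and Rela stood at 172 and 174 CPM and at 59.4 and 67.2 CPM. Of the genes for IkappaB inhibitors, Nfkbia stood at 72.1 and 68.1 CPM and Nfkbie, the lowest ratio of the list, at 11.6 and 8.42 CPM (1.38-fold lower, 1.13 to 1.70), under the threshold.

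The window of Tnfaip3, the gene of this list with the largest ratio, is shown as the first of its 2 windows (chr10:19015361-19015660, minus strand), with capitals as above.
Tnfaip3: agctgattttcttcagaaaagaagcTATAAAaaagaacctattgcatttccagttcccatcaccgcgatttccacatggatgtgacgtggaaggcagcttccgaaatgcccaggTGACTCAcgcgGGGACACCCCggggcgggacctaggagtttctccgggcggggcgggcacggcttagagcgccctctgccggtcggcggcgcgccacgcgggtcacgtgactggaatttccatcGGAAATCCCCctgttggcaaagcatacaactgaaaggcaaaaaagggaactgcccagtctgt
It held kappaB motifs 125 and 12 bases before the start, TGANTCA 136 bases and TATAAA 225 bases before it. A kappaB motif was present in 57.1% of the 21 list members with a window, against 12.2% of compared genes and 9.55% of all genes in the promoter table. This list too was drawn up from known NF-kappaB targets. Nos2 and Serping1 were not matched to a window.

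Of 25 cytokines and cytokine receptors, 20 had a ratio above 1, 3 were apart and higher (12%, against 1.66% of all genes) and none was apart and lower, with a median log2 ratio of 0.44. The largest ratio was that of Il13ra2, a decoy receptor that binds interleukin-13, at 1.22 CPM in the control and 8.42 CPM with HFD-iWAT-Exos, 6.92-fold higher (4.57 to 10.8). Il13ra2 stood at 9.65 CPM with LFD-iWAT-Exos, 60.5 CPM with LFD-vWAT-Exos, 3.67 CPM with LFD-BAT-Exos, 5.31 CPM with HFD-vWAT-Exos and 8.25 CPM with HFD-BAT-Exos, so every exosome library was above the control. Il13ra1, a subunit of the signalling receptor for interleukins 4 and 13, stood at 39.0 and 85.0 CPM, 2.18-fold higher (2.01 to 2.37). Il1rn, the interleukin-1 receptor antagonist, stood at 2.89 and 6.04 CPM, 2.09-fold higher (1.52 to 2.90), while HFD-vWAT-Exos had 1.72 CPM. Just under the threshold were Lif (leukemia inhibitory factor) at 10.1 and 19.9 CPM (log2 ratio 0.97), Il1rl1, the receptor of interleukin-33, at 232 and 417 CPM (0.85), and the cytokine Il6 at 5.55 and 9.48 CPM (0.76). The classical inflammatory cytokines were scarce: Il1b was at 0.271 CPM in the control and 0.166 CPM with HFD-iWAT-Exos, and Tnf had 2 counts and none.

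Acute phase and complement genes were also mostly higher, with a ratio above 1 in 13 of 15, a median log2 ratio of 0.36 and 2 apart and higher (13.3%, against 1.66% of all genes). Serping1, encoding the C1 inhibitor, stood at 2.30 and 5.71 CPM, 2.48-fold higher (1.76 to 3.54), and the control was the lowest of the 7 libraries. Hp (haptoglobin) stood at 145 and 290 CPM, with a log2 ratio that rounds to 1.00 and lies just under the threshold. Lcn2 (lipocalin-2) at 758 and 1373 CPM, Ptx3 (pentraxin-3) at 671 and 1129 CPM and Saa3 (serum amyloid A3) at 152 and 255.8 CPM were higher by less. No chemokine was apart among 15, 10 had a ratio above 1, and the median log2 ratio was 0.21. Ccl2, which attracts monocytes, stood at 177 and 232 CPM, Ccl7 at 174 and 239 CPM and Ccl5 at 10.2 and 15.7 CPM. Macrophages also express many of these genes. Of 23 rows of macrophage markers 4 were above 1 CPM and 9 had no count in either library, and their sum was 36.5 CPM in the control, 44.7 CPM with HFD-iWAT-Exos and up to 122 CPM with LFD-vWAT-Exos. The part of such cells in these ratios was not tested.

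**Figure D2:**
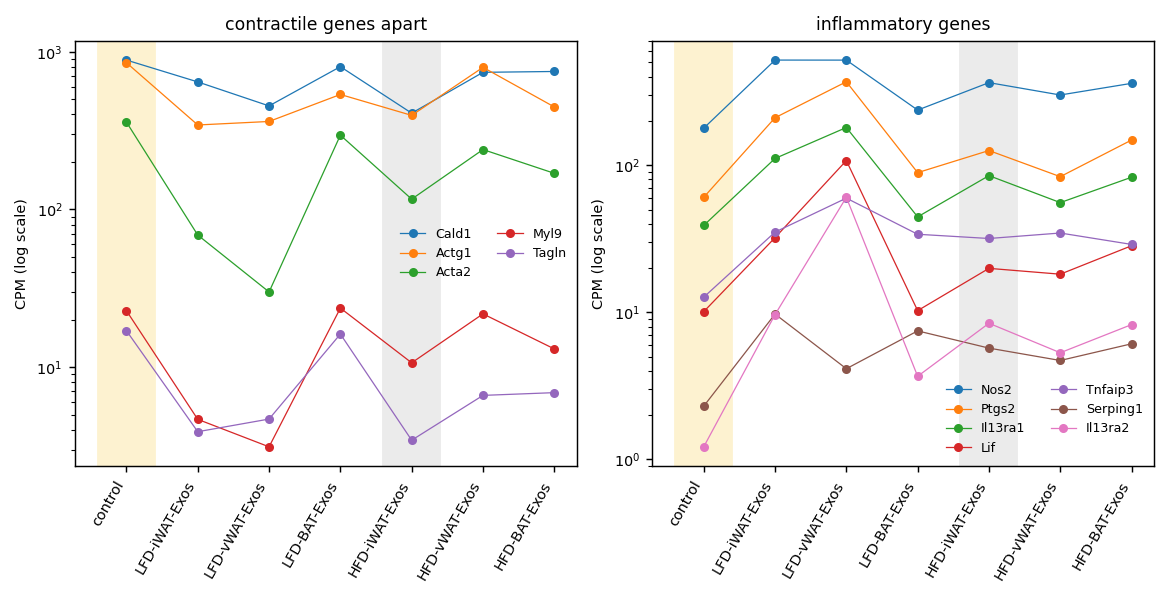
CPM on a log scale (y axis) of 5 contractile genes (left) and 7 inflammatory genes (right) in the 7 libraries (x axis), 1 library per group, with lines joining the points of 1 gene, a yellow band on the control and a grey band on HFD-iWAT-Exos. Acta2 is at 358 CPM in the control and 116 CPM with HFD-iWAT-Exos, and Tnfaip3 is at 12.7 CPM in the control and 28.9 CPM or more in every exosome library.

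Interferon-stimulated genes were slightly lower. Of 49 compared, 36 had a ratio below 1, the median log2 ratio was -0.22 and none was apart. The lowest was Ifit1, an antiviral RNA-binding protein, at 114 CPM in the control and 69.8 CPM with HFD-iWAT-Exos. Its level was 65.7 CPM with LFD-iWAT-Exos, 4.13 CPM with LFD-vWAT-Exos, 116 CPM with LFD-BAT-Exos, 84.2 CPM with HFD-vWAT-Exos and 85.8 CPM with HFD-BAT-Exos. Isg15, the ubiquitin-like modifier that interferon induces, stood at 52.4 and 35.4 CPM and Irgm1 at 83.3 and 53.4 CPM. Psmb9, an immunoproteasome subunit, was the highest of the list at 3.70 and 6.54 CPM, a log2 ratio of 0.81.

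Genes of mitosis were higher as a group although none of them reached 2-fold. All 31 members of a list of mitotic genes had a ratio above 1, against 49.6% of all genes compared, with log2 ratios from 0.05 to 0.89 and a median of 0.59, or 1.51-fold. Aurkb, encoding Aurora kinase B, had the highest ratio, at 6.94 and 12.9 CPM (1.86-fold, 1.51 to 2.29). Ccnb1, encoding cyclin B1 and uncertain in its count, stood at 9.92 and 18.1 CPM (1.82-fold, 1.53 to 2.17), and Cenpf, a kinetochore protein, at 13.1 and 24.3 CPM (1.85-fold, 1.59 to 2.15). The proliferation marker Mki67 was at 52.2 CPM in the control and 82.9 CPM with HFD-iWAT-Exos. In the other libraries Mki67 was at 131 CPM (LFD-iWAT-Exos), 37.2 CPM (LFD-vWAT-Exos), 40.8 CPM (LFD-BAT-Exos), 51.5 CPM (HFD-vWAT-Exos) and 55.0 CPM (HFD-BAT-Exos). HFD-iWAT-Exos was thus the second highest of the 7 after LFD-iWAT-Exos. In bulk RNA, more dividing cells and more of these transcripts per cell cannot be told apart. DNA replication genes were nearer to equal levels, with a median log2 ratio of 0.11 over 30 members, 21 of them above 1 and none apart. Cdc45, a replicative helicase component, stood at 9.87 and 17.1 CPM, and Pcna, the polymerase clamp, at 24.3 and 22.3 CPM. The G1 regulators had no shared direction (12 of 20 above 1, median 0.07), and Ccnd1, encoding cyclin D1 and likewise uncertain, was lower at 225 and 134 CPM.

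Cells given other exosomes give the scale of these differences, all against the same control library. Over all genes, the counts of calls were 362 of 12441 (2.91%) for HFD-iWAT-Exos, 637 of 12432 (5.12%) for LFD-iWAT-Exos, 247 of 12433 (1.99%) for HFD-vWAT-Exos and 282 of 12405 (2.27%) for HFD-BAT-Exos. The split was 394 higher and 243 lower for LFD-iWAT-Exos, 142 and 105 for HFD-vWAT-Exos, and 167 and 115 for HFD-BAT-Exos. Against LFD-iWAT-Exos itself, HFD-iWAT-Exos had 316 of 12424 genes (2.54%) apart, 184 higher and 132 lower. Against HFD-vWAT-Exos 288 of 12467 (2.31%) were apart, 141 higher and 147 lower, and against HFD-BAT-Exos 242 of 12433 (1.95%), 127 higher and 115 lower. With 1 library per group, none of these counts can be set against the difference between 2 cultures treated alike.

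Set against the other inguinal library, the mitotic genes were lower. The 4 libraries of iWAT on either diet and of HFD vWAT and BAT share the 1 control, so their ratios to it are not independent and are only set side by side. The median log2 ratio of the 31 mitotic genes to control was 0.59 with HFD-iWAT-Exos, 1.26 with LFD-iWAT-Exos, -0.02 with HFD-vWAT-Exos and 0.12 with HFD-BAT-Exos. With LFD-iWAT-Exos 25 of the 31 were apart and higher, against 394 of all 12432 genes compared. Comparing libraries directly, HFD-iWAT-Exos was below LFD-iWAT-Exos in all 31 (median -0.68, 2 apart), above HFD-vWAT-Exos in 30 (median 0.59, 1 apart) and above HFD-BAT-Exos in 30 (median 0.47, 1 apart). The shares of all genes apart in these direct comparisons were 2.54%, 2.31% and 1.95% in turn, and 1 of 31 lies near them. For the contractile list the medians to control were -0.41 with HFD-iWAT-Exos, -0.48 with LFD-iWAT-Exos, -0.11 with HFD-vWAT-Exos and -0.30 with HFD-BAT-Exos. Directly, the contractile median was 0.01 against LFD-iWAT-Exos, -0.29 against HFD-vWAT-Exos and -0.10 against HFD-BAT-Exos. Acta2, Actg1 and Myl9 were apart and lower than with HFD-vWAT-Exos, by 1.04, 1.01 and 1.02 on the log2 scale. Myl9 was apart and higher than with LFD-iWAT-Exos, by 1.18 on that scale. Cytokines and receptors had medians to control of 0.44, 0.46, 0.16 and 0.24 in the same order of libraries, and interferon-stimulated genes -0.22, -0.35, -0.14 and -0.13. Directly, the cytokine median was -0.26 against LFD-iWAT-Exos, with 6 of 25 higher, 0.18 against HFD-vWAT-Exos and 0.10 against HFD-BAT-Exos. The direct interferon median was 0.18 against LFD-iWAT-Exos, with 39 of 49 higher, -0.01 against HFD-vWAT-Exos and -0.07 against HFD-BAT-Exos.

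**Figure D3:**
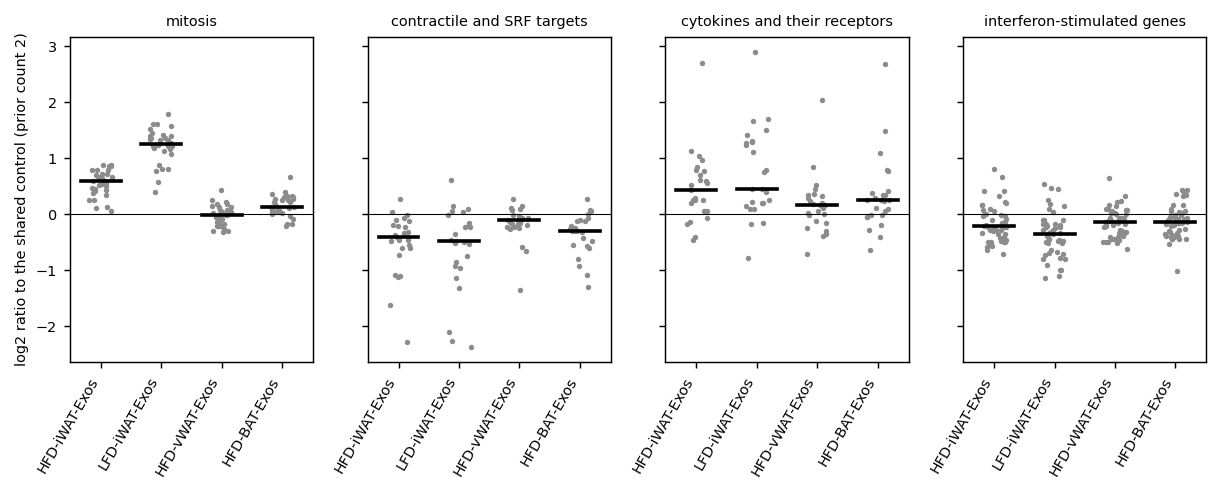
Log2 ratio of each member of 4 gene lists to the shared control (y axis, prior count of 2) in 4 exosome libraries (x axis), 1 point per gene and a black bar at the list median. The mitotic genes have medians of 0.59 with HFD-iWAT-Exos, 1.26 with LFD-iWAT-Exos, -0.02 with HFD-vWAT-Exos and 0.12 with HFD-BAT-Exos.

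Matrix genes were mostly close to equal levels, and 2.91% of all genes were apart. Collagen chains had a median log2 ratio of -0.07 over 17 members and none apart. Col11a1, a fibrillar chain, was the lowest at 845 and 585 CPM, and Col1a1 stood at 7828 and 6849 CPM. Among 26 matrix glycoproteins and proteoglycans only Fmod, encoding the collagen-binding proteoglycan fibromodulin, was apart, at 260 and 115 CPM (2.25-fold lower, 2.14 to 2.37). In the other libraries Fmod stood at 59.2 CPM (LFD-iWAT-Exos), 57.6 CPM (LFD-vWAT-Exos), 229 CPM (LFD-BAT-Exos), 239 CPM (HFD-vWAT-Exos) and 188 CPM (HFD-BAT-Exos), so HFD-iWAT-Exos lay between both other low libraries and the rest. Postn, encoding periostin, was lower by less than the threshold at 5572 and 3613 CPM. Of 24 proteases and inhibitors, Serpinb2, encoding plasminogen activator inhibitor 2, was apart and higher at 0.857 and 3.88 CPM (4.53-fold, 2.70 to 7.96). Timp4, a metalloproteinase inhibitor, was apart and lower at 5.86 and 2.27 CPM (2.58-fold, 1.80 to 3.76). Timp1 (82.1 and 142 CPM) and Mmp3 (154 and 278 CPM), a stromelysin, were higher by less than 2-fold.

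Adipocyte and lipid genes held 0 or 1 gene apart in each list, which lists of this size would also hold at the share of all genes (2.91%). Of 27 adipocyte identity genes 15 were under 1 CPM in both libraries, and 8 of the 12 compared had a ratio above 1, with a median log2 ratio of 0.22. Cebpb, an early adipogenic factor that is also induced by inflammatory signals, was the only one apart, at 47.9 and 104 CPM (2.17-fold higher, 2.01 to 2.34), and its count is uncertain. Fabp4, the fatty acid binding protein of fat cells, stood at 78.4 and 133 CPM, Cebpd at 121 and 194 CPM and Pparg, the master factor of adipogenesis, at 12.9 and 14.2 CPM. The zinc finger factor Zfp423, which marks committed preadipocytes, was lower at 9.74 and 5.88 CPM. A separate list of preadipocyte genes had 2 of 25 apart (8.0%, against 2.91% of all genes), 1 higher and 1 lower, with a median of -0.09. Its lowest ratio was that of Dnm3os. Among 22 genes of fatty acid uptake and PPAR response 1 was apart. Angptl4, an inhibitor of lipoprotein lipase, stood at 255.9 and 411 CPM, and Lpl, the lipase itself, at 1031 and 1210 CPM. No gene was apart in the lists of fatty acid oxidation (24 members, median -0.08), fatty acid synthesis (19, median 0.03), triglyceride synthesis (17, median 0.01) or lipolysis (13, median 0.06). Fasn, the fatty acid synthase, was at 122 and 124 CPM, and the lipases Pnpla2 and Lipe were at 19.8 and 26.4 CPM and at 12.9 and 18.3 CPM. Cholesterol genes leaned higher, 20 of 26 with a ratio above 1 and a median of 0.14, with Scarb1 (38.6 and 61.2 CPM) and Insig1 (19.5 and 30.7 CPM) at the top and none apart. Of 21 genes read out by the study, 17 were compared and none was apart. The study measured such genes by qPCR with several samples per group. For these exosomes against PBS the paper reports higher Il1b, Il6 and Tnf and a lipolytic state. A 2-fold rule on 1 library a side is not a test of that report. No read was counted in either library for Ucp1, through which brown fat makes heat, and Slc2a4, the insulin-responsive glucose transporter, had 2 counts in the control and none with HFD-iWAT-Exos.

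Energy and stress genes were near equal levels. Glycolytic and hypoxia genes had a median log2 ratio of -0.01 over 39 members, with the adenylate kinase gene Ak4 as the only one apart. Slc16a1, a lactate transporter, stood at 146 and 221 CPM and Ero1l, an oxidase of the endoplasmic reticulum, at 1628 and 2536 CPM. NRF2 and antioxidant genes leaned lower (22 of 28 below 1, median -0.14), as did nuclear-encoded genes of oxidative phosphorylation (22 of 31 below 1, median -0.11), with none apart in either. The 13 mitochondrially encoded genes summed to 21672 CPM in the control and 25237 CPM, with mt-Co1, an uncertain count for a subunit of cytochrome oxidase, at 11376 and 14619 CPM. The chaperone Hspa5, which binds the stress sensors of the unfolded protein response, stood at 564 and 886 CPM, while the 34 genes of that response had a median of -0.02. Immediate early and stress kinase genes leaned higher (23 of 33, median 0.19), led by Gadd45a, a stress-induced growth arrest gene, at 36.0 and 68.1 CPM. Growth factors and their binding proteins had 1 gene apart of 21, a share near that of all genes (2.91%). It was Hbegf, a ligand of the EGF receptor, at 14.4 and 30.5 CPM (2.12-fold higher, 1.84 to 2.44). The BMP-induced inhibitor Id1 was lower at 44.4 and 22.4 CPM, with a log2 ratio of -0.98.

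**Figure D4:**
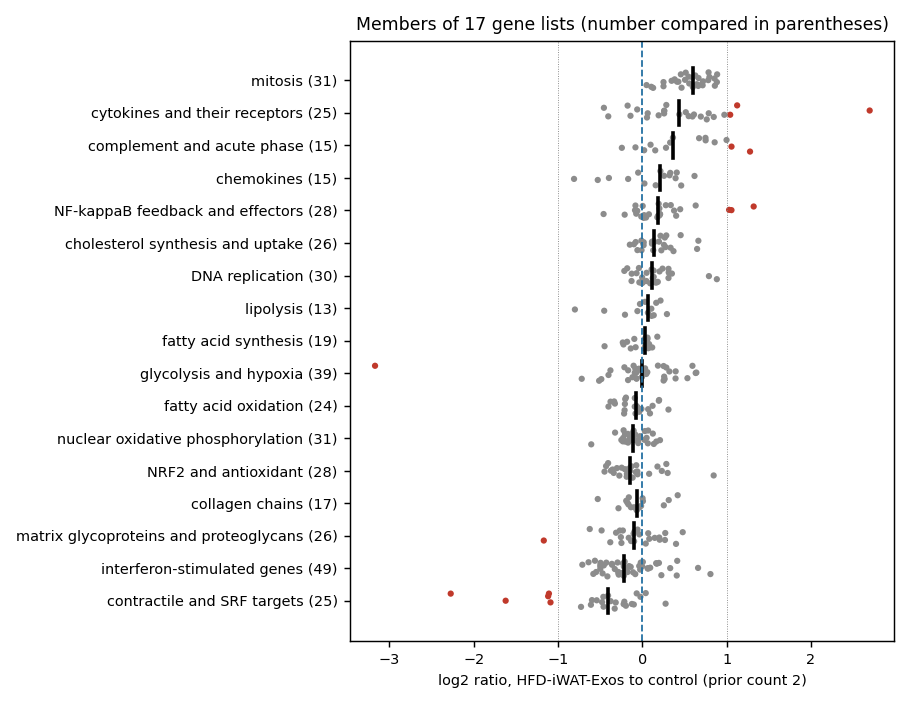
Log2 ratio of HFD-iWAT-Exos to control (x axis, prior count of 2) for each compared member of 17 gene lists (y axis, number of members in parentheses), with genes apart in red, list medians as black bars and the median of all genes as a blue dashed line. The contractile list has the lowest of the medians shown (-0.41) and the mitotic list the highest (0.59).

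The genes with the highest and lowest ratios were mostly not members of these pathways. Of the 12 highest and 12 lowest log2 ratios among genes with at least 100 counts, only Il13ra2, Murc, Tagln, Ak4, Dnm3os and the histone gene Hist2h2aa1 belonged to a list. Zbtb20, encoding a zinc finger repressor, stood at 6.58 CPM in the control and 41.9 CPM with HFD-iWAT-Exos, 6.37-fold higher (5.32 to 7.65). Its level was 33.4 CPM with LFD-iWAT-Exos, 44.6 CPM with LFD-vWAT-Exos, 36.4 CPM with LFD-BAT-Exos and 42.8 CPM with HFD-vWAT-Exos, but 2.69 CPM with HFD-BAT-Exos. Ipmk, an inositol polyphosphate kinase, stood at 12.9 and 64.1 CPM (4.97-fold higher, 4.36 to 5.67), and Ntn1, encoding the guidance cue netrin-1, at 15.2 and 69.6 CPM (4.59-fold higher, 4.07 to 5.19). The caveolar protein gene Murc stood at 1.17 and 6.32 CPM (5.39-fold higher, 3.50 to 8.60), with the control the lowest of the 7 libraries. Ak4, a mitochondrial adenylate kinase, stood at 31.2 CPM in the control and at 3.38 CPM with HFD-iWAT-Exos, 9.24-fold lower (7.11 to 12.2), and every other exosome library was between 3.19 and 11.6 CPM. Dnm3os, a transcript antisense to Dnm3 that hosts a microRNA cluster, stood at 110 and 14.0 CPM (7.85-fold lower, 6.89 to 8.97). It was at 6.61 CPM with LFD-iWAT-Exos, 26.7 CPM with LFD-vWAT-Exos and 11.1 CPM with HFD-BAT-Exos, but at 141 CPM with LFD-BAT-Exos and 145 CPM with HFD-vWAT-Exos.

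Some of the genes apart had levels that fell into a low and a high set of libraries. Over the 6 libraries other than LFD-vWAT-Exos, a gene was counted as standing at 2 levels where its log2(CPM + 1) spanned at least 1 and 1 gap took at least 0.7 of the span. This held for 47 of the 362 genes apart and for 121 of the 12441 genes compared. A span of at least 1 alone was met by 213 of the genes apart and 741 of the genes compared. Since the rule for genes apart favours such a span, the 47 are a description and not a result about these genes. In 12 of the 47 the control alone stood on its side, in 11 HFD-iWAT-Exos alone did, and in 24 each had other libraries with it. Rab22a, a small GTPase of endosomes, stood at 115 CPM in the control and 21.6 CPM with HFD-iWAT-Exos. It was at 18.4 CPM with LFD-BAT-Exos and between 103 and 110 CPM in the other 4 libraries. Tmem127, a transmembrane protein of endosomes, stood at 81.9 and 10.1 CPM, with LFD-iWAT-Exos at 76.0 CPM, LFD-vWAT-Exos at 47.4 CPM and the other 3 between 12.3 and 13.6 CPM. The low set thus held HFD-iWAT-Exos with LFD-BAT-Exos for Rab22a, and with HFD-BAT-Exos, LFD-BAT-Exos and HFD-vWAT-Exos for Tmem127. Aak1, a kinase of clathrin adaptors named after its values were seen, stood at 178 CPM with HFD-iWAT-Exos and between 27.5 and 52.4 CPM in the 6 other libraries. Without the genes at 2 levels 315 genes were apart, 184 higher and 131 lower.

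Overlapping and copied genes took a further share of the extremes. Uncertain genes, whose exons are covered for at least 20% of their bases by another gene or whose symbol stands on several rows, made up 21.8% of the genes apart and 8.51% of the genes compared, and 283 genes were apart without them. Whether the counting used the strand of the reads is not given in the sources used here. Zbtb9, encoding a zinc finger protein, stood at 0.451 and 12.2 CPM (27.0-fold higher, 14.4 to 57.2) and the overlapping gene Ggnbp1 at 14.0 and 3.82 CPM (3.65-fold lower, 2.81 to 4.82). Their sum was 14.4 CPM in the control, 16.0 CPM with HFD-iWAT-Exos and between 14.4 and 17.04 CPM in all 7 libraries. Gm28551 had no count in the control and 7.21 CPM with HFD-iWAT-Exos, at least 53.3-fold higher against a floor of 3 counts in that library, while its sum with the overlapping Asnsd1 had a ratio of 0.966. In the gamma protocadherin cluster, whose genes share their last exons and encode neuronal-type adhesion proteins, Pcdhga9 stood at 47.2 and 0.333 CPM (142-fold lower, 64.9 to 387) and Pcdhgb4 at 28.3 and 404 CPM (14.3-fold higher, 13.2 to 15.5). The 22 genes of the cluster summed to 623 CPM in the control and 937 CPM with HFD-iWAT-Exos, a ratio of 1.504, and to between 165 and 901 CPM in the other 5 libraries. Hist2h2aa1 had 18.3 CPM in the control and no count with HFD-iWAT-Exos, at least 110-fold lower, and its sum with the near-identical Hist2h2aa2 was 23.0 and 2.94 CPM. Of the 220 genes named by rule, 44 were uncertain and 41 were apart.

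**Figure D5:**
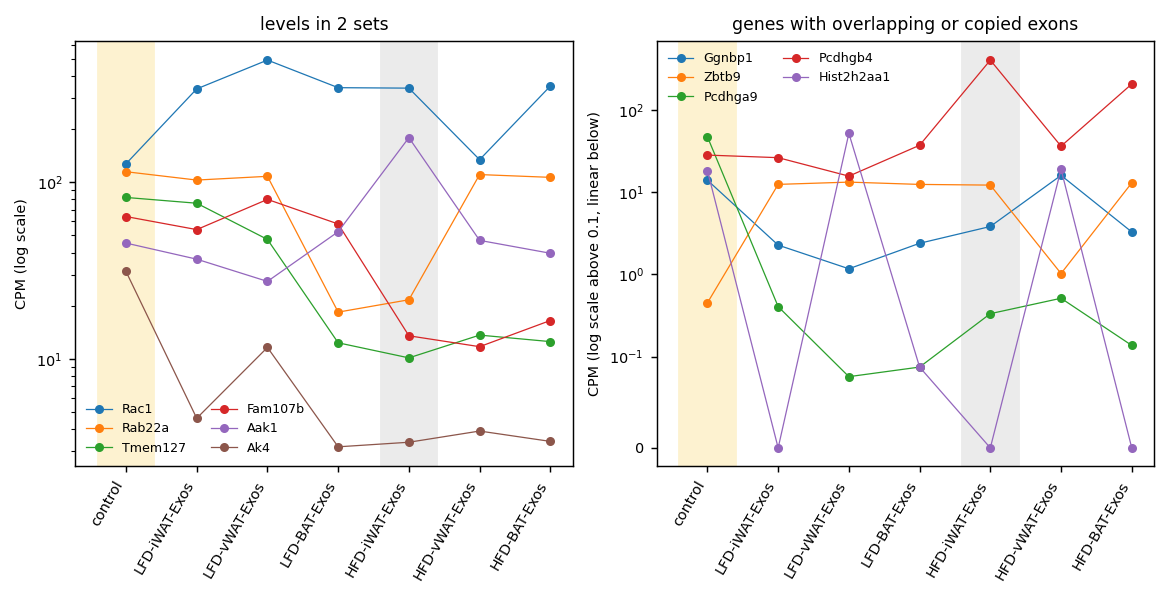
CPM in the 7 libraries (x axis, 1 library per group) of 6 genes whose levels fall in 2 sets (left, log scale) and 5 genes with overlapping or copied exons (right, log scale above 0.1 CPM and linear below), with lines joining the points of 1 gene, a yellow band on the control and a grey band on HFD-iWAT-Exos. Zbtb9 and Ggnbp1 change places between 0.451 and 14.0 CPM in the control and 12.2 and 3.82 CPM with HFD-iWAT-Exos, and Aak1 is at 178 CPM in HFD-iWAT-Exos alone.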

How the data were processed

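Each of the 7 groups of 3T3-L1 cells had 1 RNA-seq library, and the HFD-iWAT-Exos and control libraries are compared here. Per their methods, the authors trimmed the reads with fastp, mapped them with HISAT2 and assembled transcripts with StringTie and gffcompare. The authors deposited raw counts per gene, which were used here, and FPKM values (fragment counts scaled for gene length and depth), used only as an alternative. The reference that the methods give is human, but the gene identifiers are of the mouse. The build, the counting tool and the versions of the tools are not given in the sources used here. Counts were scaled by edgeR 4.0.16 TMM factors (R 4.3.3) over all 7 libraries. Ratios have exact Clopper-Pearson intervals at 95% and log2 ratios a prior count of 2 (Python 3.11.15, scipy 1.17.1). The count model named in the authors' methods could not be run, since each group has 1 library. Totals of 13493560 to 24345291 counts put 3 counts at 0.122 to 0.234 CPM. All intervals and floors cover counting error only.

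Gene overlaps came from GENCODE M21, which held 34344 of the 34745 identifiers. A named gene was also called uncertain where at least 20% of its transcripts' 31-base words occurred in transcripts of other genes. Promoters came from RefSeq (GRCm38.p6). Named genes were the 12 highest and 12 lowest log2 ratios among genes with at least 100 counts, up to 5 members of each list with at least 50 counts, and the study readouts. Aak1 and the genes given as examples near equal levels were picked after their values were seen. The members and the 43 gene lists were chosen with earlier results of these data known. Of 1030 list symbols 1029 were found. The calling script was tested on simulated data. Alternatives changed the scaling (including DESeq2 1.42.0 size factors), the minimum level, the prior count, the fold threshold, the unit and the genes left out. Those for the other libraries, the scaling without LFD-vWAT-Exos and the count without genes at 2 levels were added after seeing the data. A few genes that the rule names are not reported here.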

Additional observations from a re-analysis of the deposited data

Results flagged for a closer look

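Zbtb20 was apart in opposite directions in libraries of obese donors. Against the control, its log2 ratio was 2.65 with HFD-iWAT-Exos and -1.26 with HFD-BAT-Exos, from levels of 6.58 CPM in the control, 41.9 CPM with HFD-iWAT-Exos and 2.69 CPM with HFD-BAT-Exos. Compared directly, HFD-iWAT-Exos was above HFD-BAT-Exos by 3.91 on the log2 scale. The 4 other exosome libraries held 33.4 to 44.6 CPM. With 1 library per group the difference was not tested.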

How the results depend on the processing

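The number of genes apart between HFD-iWAT-Exos and control depended on how low genes were treated. A minimum of 10 CPM gave 93 genes, 48 higher and 45 lower, and no minimum gave 724, 429 higher and 295 lower. A prior count of 10 gave 225, 131 higher and 94 lower. The deposited FPKM, as log2(FPKM + 1), gave 65, 34 higher and 31 lower, and a 1.5-fold threshold gave 1043, 639 higher and 404 lower. Scaling by total counts, DESeq2 size factors, TMM factors without LFD-vWAT-Exos, a prior count of 0.5 and leaving out uncertain genes gave 283 to 388. The other comparisons moved likewise. With 10 CPM, no minimum, FPKM and 1.5-fold in turn, the counts against control were 287, 1149, 171 and 1599 for LFD-iWAT-Exos, 78, 572, 49 and 654 for HFD-vWAT-Exos, and 96, 598, 65 and 758 for HFD-BAT-Exos. In the same order, HFD-iWAT-Exos differed directly in 111, 705, 67 and 957 genes from LFD-iWAT-Exos, in 92, 621, 55 and 811 from HFD-vWAT-Exos and in 73, 563, 45 and 659 from HFD-BAT-Exos. A prior count of 10 gave 162 for HFD-vWAT-Exos against control, and 181 and 133 for HFD-iWAT-Exos against HFD-vWAT-Exos and HFD-BAT-Exos. Calls among list members numbered 25, and 15 at 10 CPM and 14 with FPKM.

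Of the 41 named genes apart, 2 were no longer apart with a prior count of 10 and 13 with FPKM, and none changed direction under any of the 6 alternatives run for named genes. The prior count, the pseudocount of 1 on FPKM and the CPM minimum shrink or remove low genes by construction. The scalings moved the median of all genes from -0.0028 to between -0.0042 and 0.0048. Leaving out a replicate was not possible with 1 library per group. Of the 362 genes at least 2-fold in size, 0 had an interval that held equal levels, so the interval part of the rule removed no gene. Few genes could fail it, since the 1 CPM minimum and the prior count already remove or shrink genes with few reads. It thus does not show that counting error had no part in the calls, which were concentrated among genes with few reads. No paired analysis was possible because each group has 1 library and the labels carry no replicate numbers.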
